A study of Homo sapiens with 24 samples.

Results

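The transcription factors of blood progenitor and stem cells examined here are the 10 genes MYB, GATA2, ERG, LMO2, TAL1, HHEX, SATB1, IKZF2, ZEB1 and ZEB2, of 19775 genes named on the arrays. The genes were picked as regulators of immature blood cells. Each is represented by its brightest probe set, chosen by the mean level over all arrays. ZEB1 and ZEB2 are a pair of related genes, selected on the day 6 response of ZEB1, which differed between the 2 cell lines. RNA was measured in 24 cultures of human leukemia lines. MV4-11, which carries the MLL-AF4 fusion and has B lymphoid and myelomonocytic features, was grown in IMDM medium with 3 uM of the DOT1L inhibitor EPZ004777 or with 0.1% DMSO as vehicle, and was sampled on days 2, 4 and 6. MOLM-13, an acute myeloid leukemia line with the MLL-AF9 fusion, was grown in RPMI medium with the same dose or vehicle for 6 days. Both media held fetal bovine serum, and each of the 8 groups had 3 biological replicates, 1 array each. Each fusion is represented by a single line, and line, fusion and medium cannot be told apart. How the replicates were made is not stated, so the p-values measure the spread between these samples, which may be technical.

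Transcription factors of this kind bind regulatory DNA of genes that keep blood cells immature, often side by side. MYB, GATA2, TAL1, LMO2 and ERG occupy many shared enhancers in progenitor cells, and LMO2 is an adaptor that holds TAL1, its E-protein partners and a GATA factor in one complex without touching DNA itself. HHEX is a homeobox protein of early blood and endothelial cells, SATB1 organizes chromatin loops and is best known in T cells, and IKZF2 (Helios) is an Ikaros family zinc finger. ZEB1 and ZEB2 bind E-box sequences and mostly repress. DOT1L methylates a lysine in the globular part of histone H3 along transcribed genes, and MLL fusion proteins draw it to their targets.

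The promoters of 4 genes are shown because their RNA turned out lower under the inhibitor in both lines (GATA2 and HHEX) or because they form the pair with unlike responses (ZEB1 and ZEB2). Each run holds the 250 bases before the most upstream start in RefSeq's GRCh38.p14 table, in the direction of transcription. Capitals mark matches to the E-box letters CAGGTG read by ZEB factors, the GATA letters AGATAA or the ETS letters CCGGAA, on either strand. GATA2 (chr3:128493202-128493451, minus strand), HHEX (chr10:92689705-92689954, plus strand), ZEB1 (chr10:31318167-31318416, plus strand) and ZEB2 (chr2:144520120-144520369, minus strand) read:
GATA2: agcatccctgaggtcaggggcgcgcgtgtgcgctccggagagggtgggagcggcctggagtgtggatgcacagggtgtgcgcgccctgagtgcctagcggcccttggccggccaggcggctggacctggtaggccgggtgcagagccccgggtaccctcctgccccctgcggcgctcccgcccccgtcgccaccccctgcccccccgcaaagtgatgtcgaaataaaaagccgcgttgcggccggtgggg
HHEX: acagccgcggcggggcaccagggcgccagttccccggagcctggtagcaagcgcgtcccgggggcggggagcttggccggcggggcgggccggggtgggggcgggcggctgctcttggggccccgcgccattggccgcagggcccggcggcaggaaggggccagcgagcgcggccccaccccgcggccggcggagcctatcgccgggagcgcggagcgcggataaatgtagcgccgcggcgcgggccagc
ZEB1: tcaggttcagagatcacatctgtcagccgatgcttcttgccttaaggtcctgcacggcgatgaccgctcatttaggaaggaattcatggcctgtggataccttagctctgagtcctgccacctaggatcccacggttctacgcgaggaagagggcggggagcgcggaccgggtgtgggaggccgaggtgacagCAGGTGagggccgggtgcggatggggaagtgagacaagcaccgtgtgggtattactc
ZEB2: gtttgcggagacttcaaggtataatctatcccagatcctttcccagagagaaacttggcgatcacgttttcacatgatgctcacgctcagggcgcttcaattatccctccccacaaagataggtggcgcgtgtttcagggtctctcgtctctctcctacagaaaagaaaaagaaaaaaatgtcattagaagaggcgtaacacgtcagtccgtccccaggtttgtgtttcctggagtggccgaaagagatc
Only ZEB1 holds a match in these runs, a single E-box. Over windows from 250 bases before to 50 after each listed start, 2 of 7 ZEB1 windows, 1 of 2 GATA2 windows, 3 of 4 SATB1 windows and 3 of 4 ERG windows held the E-box letters, against 20.6% of all 34943 windows. The GATA letters stood in 2 of 4 ERG windows and 1 of 2 TAL1 windows (10.36% of all windows), and the ETS letters in 1 TAL1, 1 SATB1 and 1 ZEB1 window (17.18% of all). No window of MYB, TAL1, HHEX, IKZF2 or ZEB2 held the E-box letters. The GATA and ETS letters stood in no window of the genes not named for them. Some windows of the same gene overlap. A match describes letters and not a bound site, and LMO2 was not matched in this table.

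Levels are log2 of the deposited GCRMA intensity, a background-adjusted and array-normalized probe signal, and they range from 2.19, the lowest value in every array, to 16.13. Differences are log2 differences with the SE of a linear model (limma) over all 24 arrays, and p-values are adjusted by the Benjamini-Hochberg method over 10963 genes that reached 4 in at least 3 arrays. An adjusted p under 0.05 counts as a call. Of the 10 genes, 7 passed that filter. MYB, GATA2, LMO2, HHEX, SATB1 and ZEB2 were at 4 or more in every array, whereas ZEB1 passed only through the group in which it was high and is in no count. ERG, TAL1 and IKZF2 did not pass with any of their probe sets. ERG, an ETS factor of stem cells and endothelium, read between 2.19 and 2.25 over 4 probe sets, TAL1 between 2.19 and 2.55 over 4, and IKZF2 between 2.19 and 3.62 over 3. For these 3 genes no array reached the filter of 4, and no direction is given. The brightest IKZF2 probe set alone read 2.72 to 3.62, above the lowest value in every array.

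**Figure D1:**
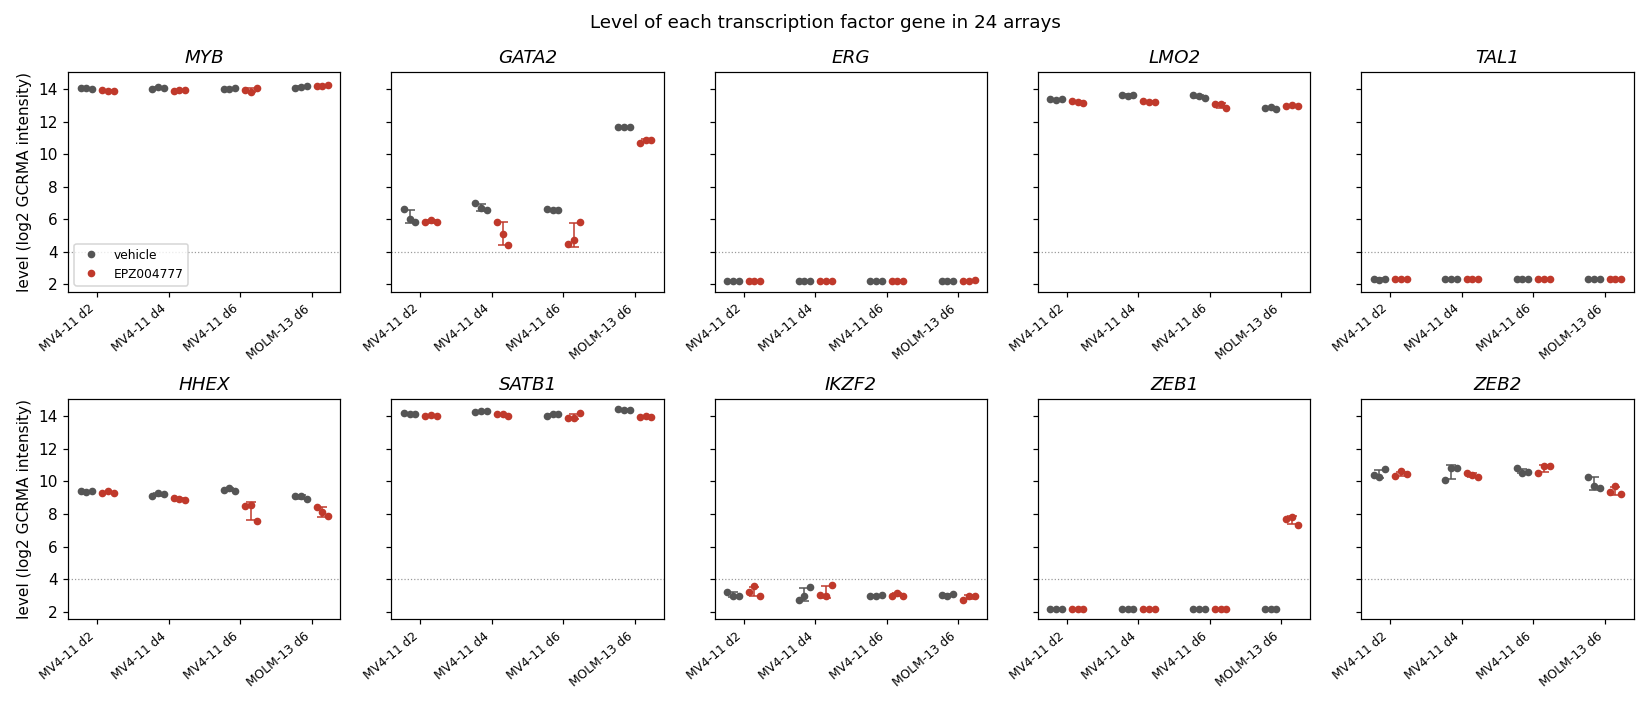
Level of each of the 10 genes (log2 GCRMA intensity, vertical axis, one scale for all panels) in the 8 groups, with days written d2, d4 and d6. Each point is 1 array, bars are the mean ± SD of 3 arrays, and the dotted line is the filter at 4. GATA2 lies near 6 in MV4-11 and near 11 in MOLM-13, ZEB1 leaves the lowest value in treated MOLM-13 cells only, and ERG, TAL1 and IKZF2 stay under the line.

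Replicate arrays correlated at a mean r of 0.992 to 0.998 within groups. Myeloid markers were present: all 5 measured passed the filter, and their summed level, the log2 of the sum of intensities, was 14.41 to 14.62 in vehicle and 14.57 to 15.51 in treated MV4-11 arrays, and 14.91 to 15.06 in vehicle and 15.95 to 16.09 in treated MOLM-13 arrays. Other lineages were sparse: 1 of 4 B lymphoid (PAX5), 1 of 4 T lymphoid (CD3D), 1 of 3 erythroid (EPOR), 1 of 4 megakaryocyte (ITGA2B), 0 of 3 mast cell and 1 of 4 endothelial markers (PECAM1) passed, and CD3E, CD2, GP9 and CPA3 were at or near the lowest value in all arrays. The summed endothelial level was 10.77 to 11.05 in vehicle and 12.66 to 12.74 in treated MOLM-13 arrays, and the summed T lymphoid level 4.84 to 6.43 and 8.04 to 8.37. The summed erythroid level was 7.77 to 8.17 in vehicle and 6.44 to 7.33 in treated MV4-11 arrays of day 6, and the summed megakaryocyte level was 5.38 to 5.54 and 6.01 to 6.72 in the same groups. Each of the endothelial, T lymphoid, erythroid and megakaryocyte sums holds only 1 marker that passed. These sums describe single genes and not lineages. The part of the marker levels in the results on these groups was not tested. The signal of actin and GAPDH control probe sets at the 3' end over the 5' end, which grows as RNA or labeled copies get shorter, was 2.10 to 2.84 in treated MOLM-13 arrays, 0.95 to 1.15 in vehicle MOLM-13 arrays and 1.91 in treated MV4-11 day 6 replicate 3, against 0.53 to 0.86 in all other MV4-11 arrays. The vehicle cultures of day 4 stood apart from those of days 2 and 6, with 13.4% of genes called higher and 15.2% lower. In bulk RNA, fewer cells of a type and less RNA per cell cannot be told apart.

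GATA2, a zinc finger factor that stem and early progenitor cells need, was lower in treated than in vehicle cultures from day 4 on in MV4-11 and on day 6 in MOLM-13. In vehicle MV4-11 cells its level was 6.61, 6.04 and 5.84 on day 2, 6.99, 6.67 and 6.55 on day 4, and 6.61, 6.55 and 6.56 on day 6. In treated MV4-11 cells it was 5.82, 5.99 and 5.84 on day 2, 5.84, 5.11 and 4.43 on day 4, and 4.49, 4.75 and 5.84 on day 6. The groups overlapped on day 2 and were apart on days 4 and 6. GATA2 did not pass the test on day 2 (-0.28 ± 0.30, adjusted p = 0.648) and fell by 1.61 ± 0.30 on day 4 (limma, adjusted p = 1.69e-04) and by 1.54 ± 0.30 on day 6 (adjusted p = 1.59e-04). The day 6 effect was larger than that of day 2 by -1.26 ± 0.42 (adjusted p = 0.0221). That call was lost without vehicle day 2 replicate 3 (-1.105), treated day 6 replicate 1 (-0.997) or treated day 6 replicate 2 (-1.13), at limma adjusted p from 0.0532 to 0.0648. It was also lost with no filter (limma adjusted p = 0.0592) and with the mean of probe sets, 2 of which are below the filter (-0.38, limma adjusted p = 0.0655). One value, 5.84, recurred to 6 decimals in 4 arrays, 3 of them treated, and 5 arrays, all treated, lay under it. A value shared by 4 or more arrays was found for 12.9% of all genes tested.

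In MOLM-13 cells GATA2 stood at 11.65, 11.67 and 11.68 in vehicle and at 10.71, 10.87 and 10.88 in treated cultures, with no overlap. It fell by 0.85 ± 0.30 there (adjusted p = 0.0177), a ratio of 0.557, and the call was lost without treated replicate 1 (-0.79, limma adjusted p = 0.0511). With the 3' over 5' difference of each array as a covariate the MOLM-13 difference was -1.92 ± 0.49 (limma adjusted p = 0.00459). Here and below, that covariate had 1 slope for all groups, fitted to the spread within groups. The spread was widest in treated MV4-11 day 6 arrays (0.83 to 1.91), through replicate 3. The slope was carried over to MOLM-13 groups that do not overlap (0.95 to 1.15 and 2.10 to 2.84), and this fit was not run without replicate 3. The effects in the 2 lines did not differ past the threshold (MOLM-13 minus MV4-11 0.70 ± 0.42, adjusted p = 0.173), though without treated MV4-11 day 6 replicate 3 that difference was 1.11 (limma adjusted p = 0.0135). The contrast between vehicle groups, which differ in line, fusion and medium, was larger: MOLM-13 cells were above MV4-11 cells by 5.09 ± 0.30 (limma adjusted p = 9.19e-12), or 34.1-fold. Every MOLM-13 array, treated ones included, was above every MV4-11 array in this probe set. The other 2 GATA2 probe sets did not pass the filter and read at most 3.90 and 3.59 in any array. The contrast thus rests on the probe set in use.

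HHEX, the homeobox factor, was lower on day 6 in both lines. In MV4-11 cells it read 9.42, 9.37 and 9.43 in vehicle and 9.28, 9.39 and 9.29 in treated cultures on day 2, and 9.12, 9.26 and 9.22 against 8.98, 8.92 and 8.87 on day 4. On day 6 it read 9.47, 9.59 and 9.43 in vehicle and 8.47, 8.55 and 7.55 in treated cultures. The day 2 groups overlapped, and those of days 4 and 6 did not. HHEX did not pass on day 2 (-0.09 ± 0.18, adjusted p = 0.850) or day 4 (-0.28 ± 0.18, adjusted p = 0.216) and fell by 1.31 ± 0.18 on day 6 (adjusted p = 2.8e-06), and the effect grew from day 2 to day 6 by -1.22 ± 0.25 (limma, adjusted p = 7.57e-04). Set against the vehicle arrays of days 2 and 6 in place of day 4, the day 4 difference was -0.53 ± 0.15 (adjusted p = 0.00626). The other probe set that passed gave -0.33 on day 4 (limma adjusted p = 0.00618) and -0.60 on day 6 (adjusted p = 1.18e-05).

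In MOLM-13 cells HHEX read 9.09, 9.13 and 8.89 in vehicle and 8.42, 8.10 and 7.86 in treated cultures, with no overlap. It fell by 0.91 ± 0.18 (adjusted p = 1.49e-04), and by 0.26 ± 0.09 in the other probe set (limma adjusted p = 0.0186). With the 3' over 5' difference as a covariate the first became 0.03 ± 0.21 (adjusted p = 0.918), and the MV4-11 day 6 value became -0.87 ± 0.14 (limma adjusted p = 3.63e-05). The lowest HHEX array of treated MV4-11 cells, replicate 3, is also the one with the 3' over 5' difference of 1.91. That array adds most to the within-group spread that sets the covariate's slope. How far the adjusted values of both lines depend on it was not tested, since this fit was not run without it. The effects in the 2 lines did not differ past the threshold (0.39 ± 0.25, adjusted p = 0.196), but they did with that covariate (0.90 ± 0.18, limma adjusted p = 5.69e-04) and in the other probe set (0.34 ± 0.13, limma adjusted p = 0.0321).

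**Figure D2:**
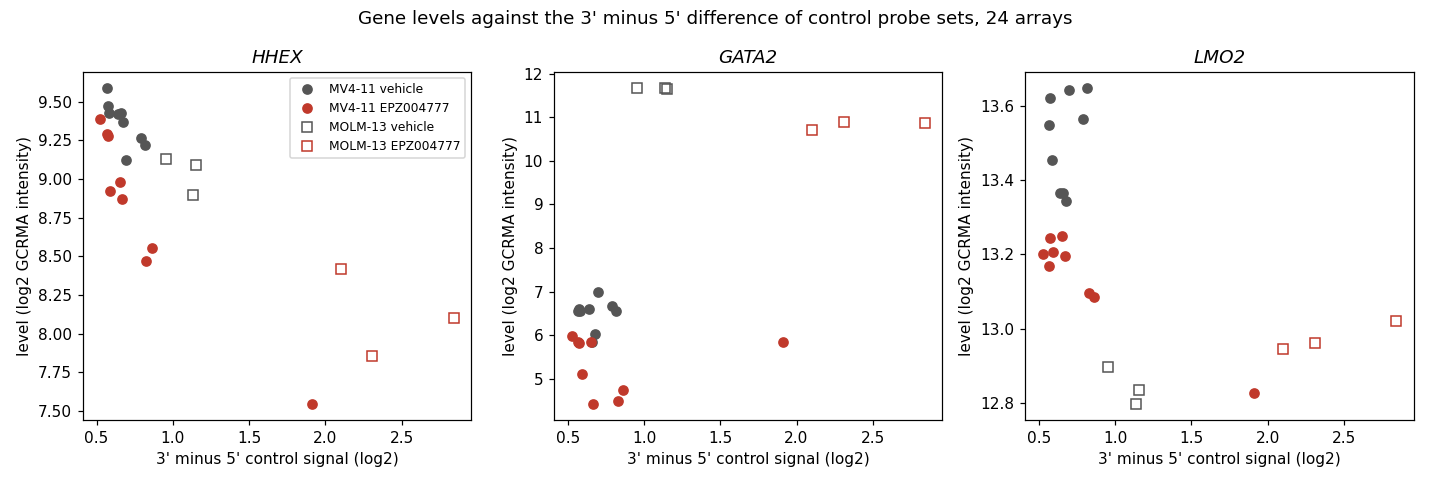
Level of HHEX, GATA2 and LMO2 (log2 GCRMA intensity, vertical axes of different range) against the 3' minus 5' difference of the actin and GAPDH control probe sets (log2), with 1 point per array. Filled circles are MV4-11, open squares MOLM-13, grey vehicle and red EPZ004777. The 3 treated MOLM-13 arrays lie farthest to the right, at 2.10 to 2.84, and treated MV4-11 day 6 replicate 3 lies at 1.91 with the lowest HHEX level, 7.55.

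LMO2, the adaptor of the TAL1 complex, responded differently in the 2 lines. Its MV4-11 levels were 13.36, 13.34 and 13.37 in vehicle and 13.24, 13.20 and 13.17 in treated cultures on day 2, and 13.64, 13.56 and 13.65 against 13.25, 13.21 and 13.20 on day 4. On day 6 they were 13.62, 13.55 and 13.46 in vehicle and 13.10, 13.08 and 12.83 in treated cultures. The treated arrays lay below the vehicle arrays on all 3 days. The difference did not pass on day 2 (-0.15 ± 0.06, adjusted p = 0.132), and LMO2 fell by 0.40 ± 0.06 on day 4 (limma, adjusted p = 2.98e-05) and by 0.54 ± 0.06 on day 6 (adjusted p = 4.42e-07), a ratio of 0.688. The day 4 difference was -0.23 ± 0.05 (limma adjusted p = 0.00121) against the vehicle arrays of the other days. From day 2 to day 6 the effect grew by -0.39 ± 0.09 (adjusted p = 0.00204). In the other LMO2 probe set that growth was -0.23 ± 0.27 (limma adjusted p = 0.544).

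In MOLM-13 cells LMO2 read 12.83, 12.90 and 12.80 in vehicle and 12.95, 13.02 and 12.96 in treated cultures, the treated arrays above. The difference of 0.13 ± 0.06 did not pass (adjusted p = 0.0685). It passed in the other LMO2 probe set (1.14 ± 0.19, limma adjusted p = 3.93e-05) and with the 3' over 5' covariate (0.34 ± 0.10, limma adjusted p = 0.0107). The effects of the 2 lines differed by 0.67 ± 0.09 (adjusted p = 4.33e-06), and by 1.82 ± 0.27 in the other probe set (limma adjusted p = 1.92e-05). Vehicle MOLM-13 cells were below vehicle MV4-11 cells by -0.70 ± 0.06 (adjusted p = 7.66e-09), but above them in the other probe set (1.05 ± 0.19, limma adjusted p = 9.72e-05), so the order of the lines depends on the probe set.

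SATB1, the chromatin organizer, fell in MOLM-13 cells. There it read 14.44, 14.38 and 14.37 in vehicle and 13.94, 14.02 and 13.98 in treated cultures, with no overlap. It fell by 0.41 ± 0.06 (adjusted p = 1.01e-05), and the other SATB1 probe sets gave -0.85 ± 0.09 and -0.90 ± 0.29 (limma adjusted p = 1.54e-07 and 0.0103). With the 3' over 5' covariate the difference was -0.70 ± 0.08 (limma adjusted p = 3.93e-06).

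In MV4-11 cells SATB1 read 14.18, 14.15 and 14.14 in vehicle and 14.02, 14.08 and 14.03 in treated cultures on day 2, then 14.28, 14.30 and 14.35 against 14.13, 14.12 and 14.04 on day 4. On day 6 it read 14.04, 14.12 and 14.15 in vehicle and 13.87, 13.92 and 14.18 in treated cultures, where replicate 3 was the highest array of both groups. The groups overlapped on day 6 only. SATB1 fell by 0.21 ± 0.06 on day 4 (limma, adjusted p = 0.00871), but the difference was -0.03 ± 0.05 against the vehicle arrays of the other days (adjusted p = 0.617). On day 2 (-0.12 ± 0.06, adjusted p = 0.286) and day 6 (-0.12 ± 0.06, adjusted p = 0.118) it did not pass, and without treated day 6 replicate 3 the day 6 value was -0.21 (limma adjusted p = 0.00101). Its probe sets disagreed on that day: 1 gave 0.18 ± 0.09 and another -1.43 ± 0.29 (limma adjusted p = 0.101 and 2.54e-04). The effects of the 2 lines differed by -0.30 ± 0.09 (adjusted p = 0.00870), a call lost with only the arrays of the comparison (limma adjusted p = 0.0574), with the mean of probe sets (0.148), after quantile normalization again (0.0728) and with arrays at a common median (-0.14, 0.226).

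MYB, a factor on which many acute leukemias depend, moved by less than 0.15 in each treatment comparison. Its MV4-11 levels were 14.09, 14.06 and 14.01 in vehicle and 13.96, 13.88 and 13.88 in treated cultures on day 2, 14.01, 14.14 and 14.03 against 13.90, 13.95 and 13.93 on day 4, and 13.97, 13.99 and 14.05 against 13.91, 13.84 and 14.04 on day 6. In MOLM-13 cells it read 14.09, 14.12 and 14.16 in vehicle and 14.17, 14.21 and 14.23 in treated cultures. Treated MV4-11 arrays lay below vehicle arrays on days 2 and 4, overlapped them on day 6, and lay above them in MOLM-13. The differences were -0.14 ± 0.05 on day 2 (adjusted p = 0.0907), -0.13 ± 0.05 on day 4 (adjusted p = 0.0492), -0.07 ± 0.05 on day 6 (adjusted p = 0.255) and 0.08 ± 0.05 in MOLM-13 (limma, adjusted p = 0.223). Only that of day 4 passed, and it was lost without any 1 of 5 of the 6 arrays compared (all but vehicle replicate 1) and against the vehicle arrays of the other days (-0.10, limma adjusted p = 0.0723). The second MYB probe set, at a mean of 5.95, gave 0.30 ± 0.11 on day 4 and -0.73 ± 0.11 in MOLM-13 (limma adjusted p = 0.0348 and 1.03e-05), opposite in sign to the first. On MV4-11 days 2 and 6 both probe sets were below 0, the second at -0.16 ± 0.11 and -0.28 ± 0.11 (limma adjusted p = 0.439 and 0.0382).

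**Figure D3:**
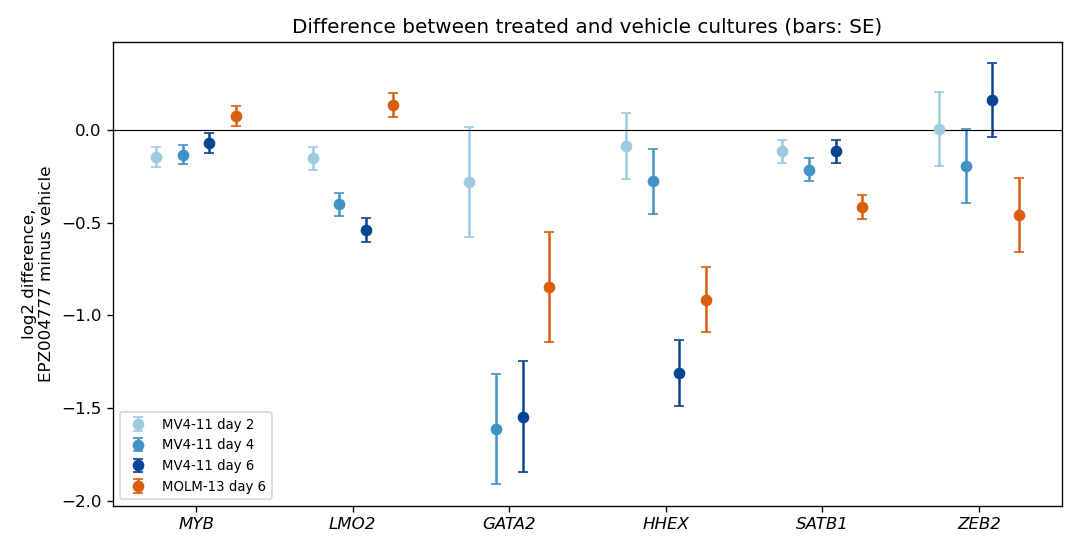
Log2 difference, EPZ004777 minus vehicle, of the 6 genes measured in all arrays (vertical axis), with the SE of the linear model as bars and 1 color per line and day. GATA2 and HHEX reach -1.54 and -1.31 on MV4-11 day 6, LMO2 is below 0 in MV4-11 and at 0.13 in MOLM-13, and MYB stays within 0.15 of 0.

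Counted over the genes measured in all arrays, 0 of 6 rose and 0 of 6 fell on day 2, against 8.83% and 3.69% of all genes tested, with a median difference of -0.13. At an unadjusted p under 0.05 limma had 0 higher and 2 lower (MYB and LMO2) on that day, and this was also the only treatment comparison of MV4-11 in which the unadjusted count differed. On day 4, 0 rose and 4 of 6 fell (GATA2, LMO2, SATB1 and MYB), against 25.2% and 21.0% of all genes, with a median of -0.25. Against the vehicle arrays of the other days 3 were called (GATA2, LMO2 and HHEX). ZEB2 is left out of the day 6 counts, since the pair was chosen on the day 6 response of ZEB1. On MV4-11 day 6, 0 rose and 3 of 5 fell (GATA2, LMO2 and HHEX), against 33.6% and 28.4%, with a median of -0.54, and 5 were called without treated replicate 3. In MOLM-13 cells 0 rose and 3 of 5 fell (GATA2, HHEX and SATB1), against 29.3% and 36.5%, with a median of -0.41, and 1 was higher at an unadjusted p under 0.05 (LMO2). The median over all genes tested was between -0.03 and 0.04 in these 4 comparisons.

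From day 2 to day 6 of MV4-11, 0 effects moved up and 3 of 5 moved down (GATA2, LMO2 and HHEX), against 20.9% and 18.7% of all genes. Between lines, 1 of 5 effects was higher in MOLM-13 (LMO2) and 1 was lower (SATB1), against 19.3% and 32.7%. The day 2 and day 6 comparisons share no arrays, but that of the lines uses the MV4-11 day 6 arrays again. Between vehicle cultures of the lines, the probe sets in use were called for all 6 genes, GATA2, SATB1 and MYB higher in MOLM-13 and LMO2, HHEX and ZEB2 lower, against 30.7% and 33.0% of all genes. Of these, SATB1 was higher by 0.29 ± 0.06 (limma adjusted p = 4.73e-04), HHEX lower by -0.46 ± 0.18 (limma adjusted p = 0.0297) and MYB higher by 0.12 ± 0.05 (limma adjusted p = 0.0495). The calls of MYB and HHEX were lost without vehicle MV4-11 replicate 1 or 2 or vehicle MOLM-13 replicate 3, and that of MYB also without vehicle MOLM-13 replicate 2, at limma adjusted p from 0.0542 to 0.147. The HHEX difference was also -0.02 in its other probe set (limma adjusted p = 0.859), -0.10 with the 3' over 5' covariate (0.532), -0.24 with the mean of probe sets (0.0896) and without a call when no filter was used (limma adjusted p = 0.0708). The MYB difference was 0.06 with that covariate (limma adjusted p = 0.318). With the mean of probe sets 2 of 6 genes were called between the lines. SATB1 reversed in another probe set (-0.61 ± 0.09, limma adjusted p = 9.2e-06).

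In vehicle MV4-11 cells, 0 of 6 were called in either direction by limma from day 2 to day 6, against 0.784% and 0.337% of all genes. At an unadjusted p under 0.05, 1 was higher (LMO2), and the differences ran from -0.05 for SATB1 to 0.41 ± 0.30 for GATA2. On day 4, LMO2 (0.17 ± 0.05, limma adjusted p = 0.0257) and SATB1 (0.18 ± 0.05, limma adjusted p = 0.0188) were above the mean of the other days, and 0 of 6 were below it. Both calls were lost without vehicle day 4 replicate 3 (limma adjusted p = 0.112 and 0.0980), and that of LMO2 also without vehicle day 4 replicate 1 (0.0841) or vehicle day 6 replicate 3 (0.0598).

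ZEB1 and ZEB2, the E-box repressors, are given as a description, since the ZEB1 response led to their choice. ZEB1 read 7.70, 7.79 and 7.35 in the 3 treated MOLM-13 arrays and 2.19 in the other 21 arrays, treated MV4-11 cells of all days and vehicle MOLM-13 cells among them. The 3 treated MOLM-13 arrays thus stood alone, and since the other groups were at the lowest value no fold is given. A second ZEB1 probe set read 3.20, 2.61 and 2.79 in the same 3 arrays and at most 2.19 elsewhere, another read 2.67 in 1 of them, and the last of the 4 stayed at the lowest value. These arrays are also those with the 3' over 5' difference of 2.10 to 2.84. In them CD3D, which encodes a CD3 chain of the T cell receptor complex, had a mean of 8.12 against 5.38 in vehicle MOLM-13 arrays. PECAM1, an endothelial and myeloid adhesion gene, stood at a mean of 12.71 against 10.92 in these groups. CD3E, CD3G and CD2 were at or near the lowest value in all arrays, as were the endothelial genes CDH5 and KDR. The part of any of these in the ZEB1 result was not tested.

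ZEB2 was measured in every group. In MV4-11 cells it read 10.41, 10.24 and 10.74 in vehicle and 10.36, 10.61 and 10.44 in treated cultures on day 2, 10.09, 10.82 and 10.82 against 10.50, 10.41 and 10.25 on day 4, and 10.81, 10.54 and 10.59 against 10.53, 10.94 and 10.93 on day 6. In MOLM-13 cells it read 10.29, 9.71 and 9.61 in vehicle and 9.33, 9.69 and 9.22 in treated cultures. Treated and vehicle arrays overlapped in all 4 comparisons. On days 2 and 4 the differences were 0.00 ± 0.20 and -0.19 ± 0.20 (limma adjusted p = 1.000 and 0.459), and on day 6 they were 0.16 ± 0.20 in MV4-11 and -0.46 ± 0.20 in MOLM-13, without a test. The probe set in use had almost the same mean as the next, 10.33 for both, and that one gave 0.49 ± 0.12 and -0.21 ± 0.12 on day 6. The other 2 that passed gave -0.23 and -0.98 in MV4-11 and -1.29 and -0.81 in MOLM-13. All 4 were thus below 0 in MOLM-13, and 2 of 4 in MV4-11. Before treatment enters, ZEB2 was lower in vehicle MOLM-13 than in vehicle MV4-11 cells by -0.77 ± 0.20 (limma adjusted p = 0.00216), and the other 3 probe sets were below 0 as well (lowest -1.57).

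**Figure D4:**
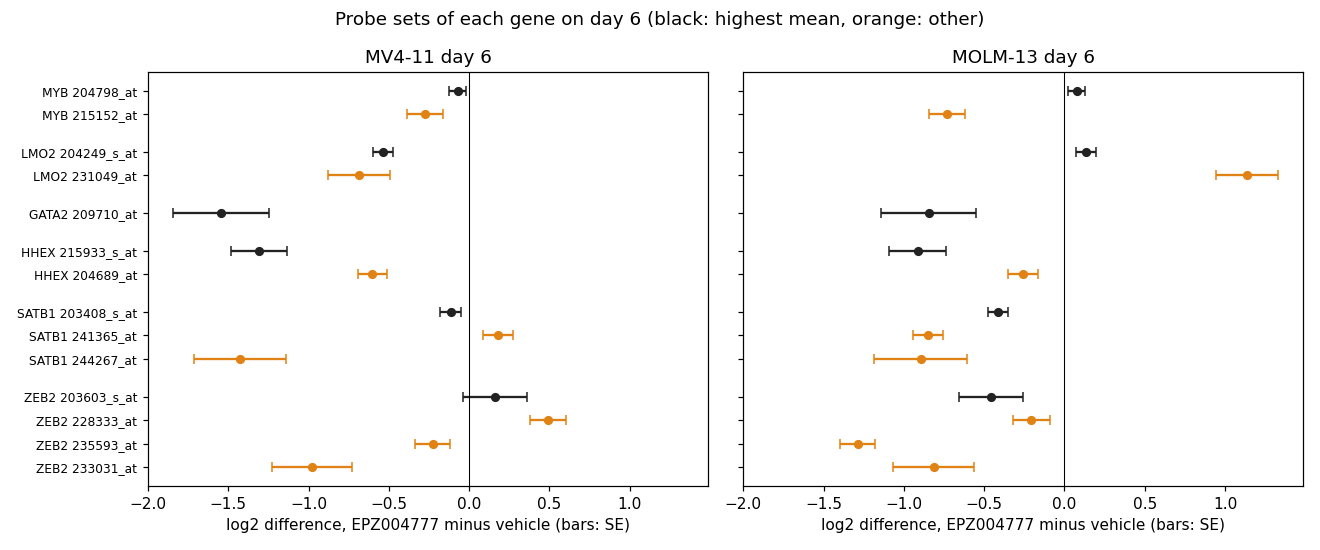
Log2 difference, EPZ004777 minus vehicle, on day 6 (horizontal axes) in MV4-11 (left) and MOLM-13 (right), with the SE of the linear model as bars. Shown is every probe set that passed the filter for MYB, LMO2, GATA2, HHEX, SATB1 and ZEB2, and ZEB1 is left out. Black points are the probe set with the highest mean and orange points the others. The HHEX points lie below 0 in both lines, while those of SATB1 and ZEB2 fall on both sides of 0 in MV4-11 and those of MYB in MOLM-13.

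Partners of TAL1 and LMO2 that rose on day 6 in both lines included TCF4, SSBP2, SSBP3, LYL1 and CBFA2T3. Of 9 tested partners and fellow factors, 3 rose and 0 fell on day 2, 5 rose and 1 fell on day 4, 7 rose and 1 fell on day 6, and 6 rose and 3 fell in MOLM-13, with medians of 0.06, 0.35, 0.50 and 0.69. At an unadjusted p under 0.05, 1 fell on day 2. Of all genes tested, 8.83%, 25.2%, 33.6% and 29.3% rose and 3.69%, 21.0%, 28.4% and 36.5% fell in these comparisons. For 9 genes those shares come to 0.79, 2.27, 3.03 and 2.64 rises and 0.33, 1.89, 2.56 and 3.29 falls. TCF4, an E-protein that pairs with TAL1, rose by 1.16 ± 0.10, 2.57 ± 0.10 and 3.00 ± 0.10 over the 3 days of MV4-11 (limma adjusted p = 4.1e-15 on day 6), from 8.97 to 11.97 on day 6, and by 0.79 ± 0.10 in MOLM-13. The single-stranded DNA binding proteins SSBP2 and SSBP3, which stabilize the LDB1 subunit, rose by 1.95 ± 0.16 and 1.40 ± 0.06 on MV4-11 day 6 and by 1.47 ± 0.16 and 0.69 ± 0.06 in MOLM-13. LYL1, the closest relative of TAL1, rose by 0.89 ± 0.07 and 0.77 ± 0.07 (limma adjusted p = 4.1e-09 and 3e-08), and the corepressor CBFA2T3 by 0.50 ± 0.08 and 0.78 ± 0.08. TCF12, another E-protein, rose by 0.25 ± 0.06 in MV4-11 on day 6 and fell by 0.63 ± 0.06 in MOLM-13.

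Relatives of the 10 genes moved in both directions. Of 8 tested, 1 rose and 1 fell on day 2, 2 rose and 1 fell on day 4, 4 rose and 2 fell on day 6, and 2 rose and 4 fell in MOLM-13, with medians of 0.03, 0.15, 0.27 and -0.14. Each count lay within 1.31 genes of what the shares of all genes give for 8 genes (8.83%, 25.2%, 33.6% and 29.3% higher, 3.69%, 21.0%, 28.4% and 36.5% lower). LMO4, a relative of LMO2, rose by 1.41 ± 0.08 on MV4-11 day 6 (limma adjusted p = 1.2e-11) and fell by 0.52 ± 0.08 in MOLM-13, where LMO2 itself was at -0.54 and 0.13. MYBL2, a relative of MYB active in dividing cells, fell by 0.96 ± 0.08 on MV4-11 day 6 and by 0.22 ± 0.08 in MOLM-13. IKZF4 rose by 0.51 ± 0.13 on MV4-11 day 6, and IKZF5 fell by 0.77 ± 0.11 in MOLM-13. GATA1 and GATA3 did not pass the filter.

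Among 6 coactivators and targets of MYB, 1 rose and 0 fell on day 2, 2 rose and 0 fell on day 4, 2 rose and 2 fell on day 6, and 1 rose and 3 fell in MOLM-13, with medians of 0.04, 0.18, 0.10 and -0.16. At an unadjusted p under 0.05, 0 fell on days 2 and 4 as well. Each count lay within 1.26 genes of what the same shares of all genes, from 8.83% to 33.6% higher and from 3.69% to 36.5% lower, give for 6 genes. KIT, the stem cell factor receptor, rose by 1.14 ± 0.10, 2.49 ± 0.10 and 2.12 ± 0.10 in MV4-11 over the 3 days, and was at 2.99 in both MOLM-13 groups. CREBBP, a histone acetyltransferase, rose by 0.63 ± 0.09 on MV4-11 day 6 and by 0.27 ± 0.09 in MOLM-13. MYC, a growth regulator, fell by 0.49 ± 0.12 and by 1.00 ± 0.12 (limma adjusted p = 0.0011 and 3.4e-07), and EP300, a relative of CREBBP, fell by 0.68 ± 0.12 in MOLM-13.

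Of 7 corepressors that work with ZEB factors, 0 rose in any comparison and 1, 2, 2 and 3 fell on MV4-11 days 2, 4 and 6 and in MOLM-13, with medians of 0.01, -0.06, -0.10 and -0.09. At an unadjusted p under 0.05, 1 was higher on MV4-11 day 6 and 1 in MOLM-13. The shares of all genes that fell, 3.69%, 21.0%, 28.4% and 36.5%, come to 0.26, 1.47, 1.99 and 2.56 of 7 genes, and those that rose, 8.83%, 25.2%, 33.6% and 29.3%, to 0.62, 1.76, 2.35 and 2.05. KDM1A, a histone demethylase, fell by 0.58 ± 0.08 on MV4-11 day 6 and by 1.95 ± 0.08 in MOLM-13 (limma adjusted p = 4e-06 and 1.4e-13), from 9.71 to 7.76 in the latter. HDAC2, a deacetylase, fell by 0.62 ± 0.06 and the scaffold RCOR1 by 0.49 ± 0.07 in MOLM-13. SMARCA4, a remodeling ATPase, fell by 0.21 ± 0.06 on day 2 and CTBP2 by 0.42 ± 0.12 on day 4 in MV4-11. Of 10 epithelial and mesenchymal genes around ZEB factors, 2 were tested, too few to set against those shares. The filament gene VIM rose on all MV4-11 days (0.69 ± 0.18, 0.89 ± 0.18 and 0.51 ± 0.18) and was at 0.13 ± 0.18 in MOLM-13, while CRB3 passed in no comparison. The E-cadherin gene CDH1 and EPCAM did not pass the filter.

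NuRD subunits, the remodeling partners of Ikaros proteins and SATB1, had 0 of 11 rise and 0 fall on day 2, and 1 lower at an unadjusted p under 0.05. On day 4, 2 rose and 1 fell, on day 6, 3 rose and 4 fell, and in MOLM-13, 5 rose and 3 fell, with medians of -0.03, -0.03, -0.10 and 0.22 over the 4 comparisons. Each count lay within 1.78 genes of what the shares of all genes (8.83%, 25.2%, 33.6% and 29.3% higher, 3.69%, 21.0%, 28.4% and 36.5% lower) give for 11 genes. GATAD2B rose by 1.34 ± 0.17 and CHD3 by 0.90 ± 0.15 on MV4-11 day 6, and MTA2 fell by 1.05 ± 0.11. RBBP4, a histone chaperone, fell by 1.23 ± 0.12 and MBD3 rose by 0.67 ± 0.13 in MOLM-13. Of 11 other stem and progenitor regulators, 5 were tested: 1 rose and 1 fell on day 2, 3 rose and 1 fell on days 4 and 6 alike, and 1 rose and 2 fell in MOLM-13, with medians of 0.25, 0.95, 0.69 and -0.18. Each count lay within 1.74 genes of what those shares give for 5 genes. MSI2, an RNA-binding protein of stem cells, rose by 1.28 ± 0.12, SOX4 by 0.80 ± 0.08 and BCL11A by 0.69 ± 0.12 on MV4-11 day 6, while in MOLM-13 SOX4 fell by 0.33 ± 0.08. The repressor ETV6 fell in all 4 comparisons, by 0.38 ± 0.09, 0.40 ± 0.09, 0.63 ± 0.09 and 0.49 ± 0.09. MECOM, HLF and PRDM16 did not pass the filter.

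The order of the 8 group means differed among the genes. GATA2 had both MOLM-13 groups on top and the treated MV4-11 groups of days 4 and 6 last, and those last means, 5.12 ± 0.71 and 5.03 ± 0.72 (SD, n = 3), did not differ beyond their spread. HHEX had the treated day 6 groups of both lines last, at 8.19 ± 0.56 and 8.12 ± 0.28, which overlapped. LMO2 ran from 13.62 ± 0.05 in vehicle MV4-11 cells on day 4 to 12.84 ± 0.05 in vehicle MOLM-13 cells. SATB1 was highest in vehicle MOLM-13 cells (14.40 ± 0.04) and lowest in treated MOLM-13 cells (13.98 ± 0.04). From vehicle MV4-11 cells of day 2 downward, each SATB1 group overlapped the next. ZEB2 had the MOLM-13 groups last, at 9.87 ± 0.37 and 9.41 ± 0.24, and all 8 groups overlapped from each to the next.

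The genes whose 8 group means followed each pattern most closely are named by Pearson's r over those 8 means, as a description. For GATA2 they were PRKDC (0.995), WBP4 (0.995) and SPRY2 (0.994), which were highest in vehicle MOLM-13 cells. For HHEX they were CSTF3 (0.990), NCAPD3 (0.986) and LPCAT3 (0.985), and for LMO2 FRG1JP (0.985), GADD45A (0.973) and KCNN4 (0.972). The closest to SATB1 were PKDCC (0.954), HSD17B12 (0.952) and MED29 (0.934), and to MYB SREK1IP1 (0.984), GATAD2A (0.981) and NCR3LG1 (0.972). ZEB2 was followed by NINJ1 (0.991), RNF113A (0.988) and SOCS6 (0.987), which were lowest in treated MOLM-13 cells. CYP4F3, PLEKHN1 and KCNJ2 matched ZEB1 at 1.0, and CYP4F3 and KCNJ2 likewise went from the lowest value to 6.44 and 5.70 in treated MOLM-13 cells. With 1 group apart from 7, a correlation for ZEB1 rests on that group. Those for GATA2 rest largely on the split of the lines, with means of 10.82 and 11.67 in MOLM-13 and at most 6.74 in MV4-11.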

How the data were processed

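Total RNA of 24 cultures was labeled with biotin and hybridized to Affymetrix arrays with 54675 probe sets. The deposited values are intensity values that the submitters' processing notes credit to GCRMA, which adjusts background by probe sequence, quantile normalizes and summarizes probe sets. The version and genome build are not given in the sources used here. The values were on a linear scale, so log2 was taken with a pseudocount of 0. Between 34.6% and 37.2% of probe sets per array sat at the lowest value. The platform table gave 41097 probe sets 1 gene symbol, 1801 several symbols and 11777 no symbol. Of those with 1 symbol, 41043 matched RefSeq's GRCh38.p14 table.

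The probe set with the highest mean over all arrays stood for a gene, and 10963 genes with log2 of at least 4 in at least 3 arrays were tested. Means of 8 groups were fitted in R 4.3.3 by the lmFit function of limma 3.58.1, contrasts were moderated by eBayes, and two-sided p-values received Benjamini-Hochberg adjustment. The number of arrays, 3 a group, limits the precision. Exact tests of 3 against 3 cannot go below 0.1. No 2 arrays were identical. The steps were tested on simulated data. Same-numbered replicates did not deviate together (r from -0.26 to 0.10). Deviations from means of 3 arrays cannot exclude a pairing, so whether the numbers pair cultures is not known.

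The genes and lists were chosen with earlier results of these data known. All 10 genes are named throughout, of each pathway list up to 4 genes a comparison by adjusted p, and per tested gene the 3 with the most similar group means. Leaving ZEB1 out of counts, and ZEB2 on day 6, the recurring values of GATA2 and the choice of printed promoters were decided after values were seen. Alternatives were no filter or one at log2 6, only the arrays compared, a trended and robust variance prior, other probe sets or their mean, arrays set to a common median, repeated quantile normalization, a replicate block, the 3' to 5' difference as a covariate, other vehicle arrays for day 4 and each array left out. Levels, counts, motif matches and plots came from Python 3.11.15 (numpy 2.4.6, pandas 2.3.3, matplotlib 3.10.9).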

Additional observations from a re-analysis of the deposited data

Results flagged for a closer look

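Effects of EPZ004777 that differed between days 2 and 6 of MV4-11 were those of GATA2 (-1.26), HHEX (-1.22) and LMO2 (-0.39), each a day 6 minus day 2 difference of log2 differences that passed limma's test. Effects that differed between lines on day 6 were those of LMO2 (0.67) and SATB1 (-0.30), as MOLM-13 minus MV4-11.

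A ZEB1 probe set outside the tests had a mean of 2.87 in treated MOLM-13 arrays and 2.19 in vehicle arrays of that line, below the filter of 4 in both. A TAL1 probe set outside the tests had a mean of 2.41 in treated and 2.31 in vehicle MV4-11 arrays of day 4, and of 2.31 in treated and 2.38 in vehicle arrays of day 6. These TAL1 values lie at or near the lowest value and give no direction.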

How the results depend on the processing

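Of 978 alternatives run on single genes, 869 kept the direction and side of the threshold, or were without a call and moved within the spread; 40 of those changed sign with neither fit past the threshold. Another 34 gained a call, 45 lost one, 14 reversed and 16 untested ZEB2 values moved; the causes were not tested unless stated. The replicate block lost the MYB calls of day 4 (-0.13) and of the vehicle lines (0.12), gave 3 called on day 4 and 5 between vehicle lines, and changed no other call.

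Reversed values were these. For MYB, the mean of probe sets gave 0.082 on day 4, -0.33 in MOLM-13 and -0.22 for vehicle day 4, and the second probe set gave 0.30, -0.73 and -0.48 for these, -0.46 between the lines' effects and -0.041 between vehicle lines. For LMO2 between vehicle lines, the mean of probe sets gave 0.17 and the other probe set 1.05. For SATB1, probe sets gave 0.12 on day 4, -0.61 between vehicle lines and 0.53 between the lines' effects. HHEX in MOLM-13 was 0.034 with the 3' to 5' covariate.

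Genes of the 10 called on day 2 became 1 with only the arrays compared, with averaged probe sets, with the trended and robust prior or with the covariate. On MV4-11 day 6 they became 5 with the mean of probe sets, a common median or the covariate, and ranged from 3 to 5 with arrays left out. In MOLM-13 they became 5 with the mean of probe sets, quantile normalization again or a common median. Between the lines' effects they became 1 with only the arrays compared or the mean of probe sets, and 2 to 4 with arrays left out (4 without treated MV4-11 day 6 replicate 3). Between vehicle lines they became 2 with the mean of probe sets, and for vehicle day 4 0 to 2 with arrays left out.

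Genes called in all were 4338 in MOLM-13 with the covariate (7214 without). Between vehicle days 2 and 6 they were 0 with only the arrays compared, 215 with the covariate and 28 to 366 with arrays left out (123 in the fit reported). With arrays left out they ranged from 912 to 981 on day 2, lowest without vehicle replicate 1, and from 1872 to 3034 for vehicle day 4, lowest without vehicle day 4 replicate 3. Values near the lowest intensity have no measured order, which limits ERG, TAL1, IKZF2 and ZEB1.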
